A study of Mus musculus with 8 samples.

Results

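Cholesterol and fatty acid synthesis genes were followed in 8 mouse prostate tumours as a fixed list of 29 genes, out of 24028 in the deposited tables. They were taken by gene symbol: 17 enzymes of the mevalonate and sterol pathway, 5 regulators of the SREBP system and 7 enzymes of fatty acid synthesis. The rule holds gene symbols and no expression value, and all 29 passed the filter on low counts. The tumours grew from 1 M TRAMP-C2 cells, 1 established line of prostate adenocarcinoma from a TRAMP mouse (a viral T antigen under the probasin promoter), placed in the dorsolateral prostate of male C57BL/6 hosts with intact immunity. 4 hosts were aged (20 to 24 months) and 4 were young (4 months), and tumours were collected 30 to 45 days after injection, with no other treatment named in the labels. In all 19 aged and 20 young hosts were injected, and how the 4 of each age were chosen for sequencing is not given in the sources used here. Bulk RNA of injected and host cells was read together, so that fewer cells of a type and less RNA per cell cannot be told apart. Each tumour came from a mouse of its own and is named here by host group and mouse number (aged 46, 47, 50 and 51, young 36, 37, 40 and 43).

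Cells build cholesterol from acetyl-CoA through mevalonate, isoprenoid units and squalene, and trim the first sterol, lanosterol, to cholesterol. Fatty acids are built from the same acetyl-CoA by carboxylation, chain assembly, elongation and desaturation. SREBP transcription factors are held in the endoplasmic reticulum by sterol-bound Scap and Insig proteins. When sterols are scarce they travel to the Golgi, are cut, and switch on the genes of both pathways, Srebf2 mainly those of sterols and Srebf1 mainly those of fatty acids. In prostate epithelium and prostate cancer both pathways are known to respond to androgen, and tumour cells are known for making much of their own lipid.

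Libraries held 27.1 to 35.7 M fragments, and TMM scaling factors lay between 0.95 and 1.04. The labelled cell type is epithelial. The defining marker Epcam stood at 0.7 to 69.4 CPM (counts scaled to the library total) and Cdh1 at 2.83 to 85.3 CPM, both lowest in young 43. Transcripts of other tissues set some tumours apart. The 8 seminal vesicle genes summed to 38197 CPM in young 36 and 22952 CPM in aged 50, against at most 18.9 CPM elsewhere. The 8 prostate secretory genes summed to 11140 CPM in young 37 and 6221 CPM in aged 50, against 6.04 to 1507 CPM elsewhere. The 7 skeletal muscle genes summed to 116 CPM in aged 51 and 9.35 to 38.1 CPM in the others, and the 10 adipocyte genes to 653 CPM in aged 51 and 73.7 to 268 CPM in the others.

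All 29 genes had fragments in all 8 tumours. Per transcript length, Scd2, a stearoyl-CoA desaturase that makes monounsaturated fatty acids, was the most abundant with a median of 97.5 FPKM (CPM per kilobase of transcript). It was followed by Fdps, the farnesyl diphosphate synthase, at 74.0 FPKM, 26.7% of whose exon bases also belong to Gm43738 on the same strand, and Acly, which makes cytosolic acetyl-CoA from citrate, at 67.6 FPKM. Srebf2 (35.0), Fasn (31.1), Scd1 (30.5), Idi1 (29.7) and Sqle (27.6 FPKM) came next, and their ranges over the 8 tumours overlapped. At the lower end stood Hsd17b7 (3.08), Tm7sf2 (1.47) and Acss2 (0.902 FPKM). That order depends on the deposited transcript lengths (9533 bases for Acss2). In CPM Tm7sf2 was lower, at 1.89 to 5.33 against 5.25 to 13.5 for Acss2. Acss2, which activates acetate, thus had a far lower level per length than Acly, the other source of cytosolic acetyl-CoA on the list.

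**Figure D1:**
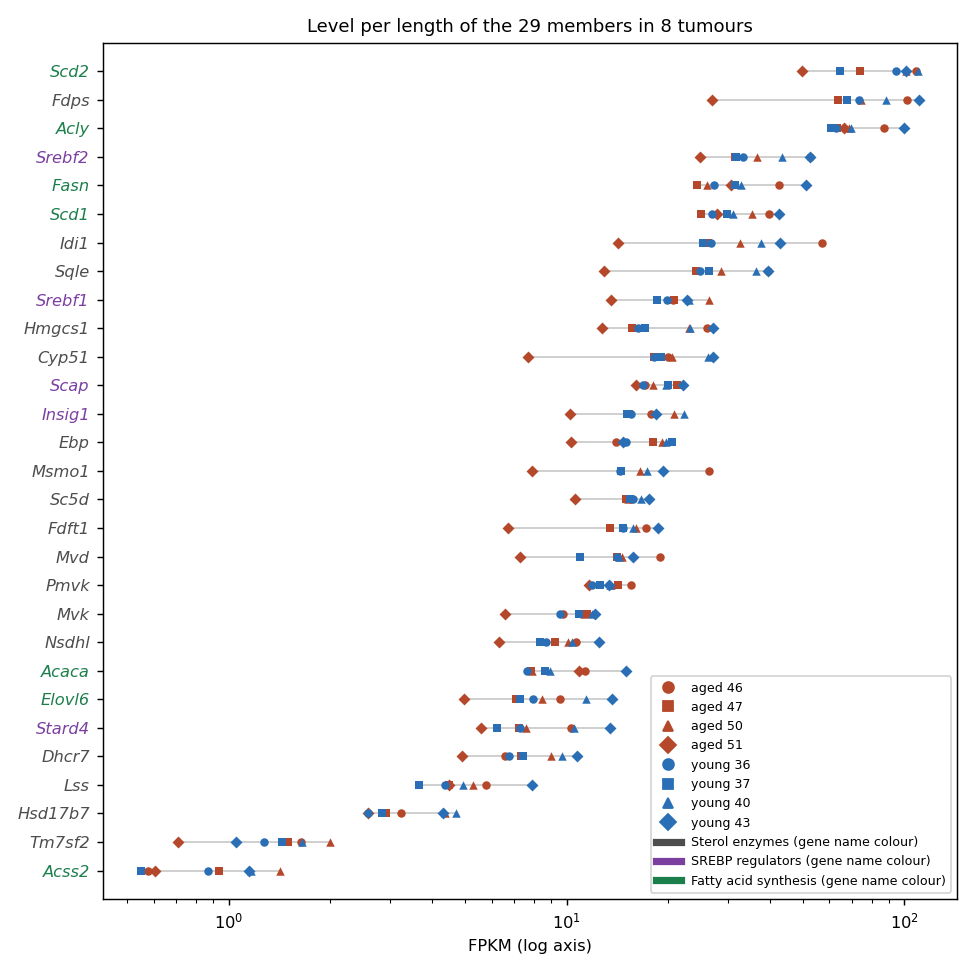
Level per length (FPKM, log axis) of each of the 29 genes, ordered by median, with 1 point per tumour (red aged hosts, blue young hosts). Scd2, Fdps and Acly lead and Tm7sf2 and Acss2 are lowest, and aged 51 (red diamonds) is the leftmost point of most sterol enzymes but not of Fasn, Acly or Acaca.

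The promoters of 23 of the 29 genes were found in RefSeq (GRCm38.p6). They are shown as a description, and whether their sequence bears on how the genes varied between tumours was not tested. The 250 bases before each start were searched on both strands. The sterol regulatory element TCACNCCAC was present in 1 of 14 sterol enzyme promoters, that of Hmgcs1, and in 1.23% of all 27025 genes of the promoter table. The CCAAT box of NF-Y, a factor known to act beside SREBP, was present in 14 of 14 sterol enzyme promoters, 3 of 4 of the regulators, 2 of 5 of the fatty acid genes and 37.5% of all. The Sp1 box GGGCGG was present in 13 of 14, 4 of 4 and 2 of 5, and in 35.4% of all. The shares of all take in genes whether or not they were expressed in these tumours, and no share over expressed genes was taken. A match is only a match of letters, and other spellings of these elements were not searched. Hmgcs1 is the synthase that joins acetyl-CoA to acetoacetyl-CoA early in the pathway. In its stretch, capitals mark the sterol element and a CCAAT box read on the opposite strand (chr13:119690174-119690262, plus strand, 177 to 89 bases before the start).
Hmgcs1: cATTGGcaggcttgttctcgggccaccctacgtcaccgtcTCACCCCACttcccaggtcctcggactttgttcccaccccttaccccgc
The 100 bases before the start are given as examples for 4 sterol enzymes and for Acly, which has Sp1 boxes and no CCAAT box there. Capitals mark CCAAT or GGGCGG, or their complements ATTGG and CCGCCC, which do not overlap in these stretches. Positions are chr13:8885506-8885605 (plus strand) for Idi1, chr5:4104698-4104797 (minus) for Cyp51, chr8:64733579-64733678 (minus) for Msmo1, chrX:72918421-72918520 (plus) for Nsdhl and chr11:100528001-100528100 (minus) for Acly.
Idi1: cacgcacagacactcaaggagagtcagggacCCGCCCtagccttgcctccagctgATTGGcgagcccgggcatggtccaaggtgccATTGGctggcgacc
Cyp51: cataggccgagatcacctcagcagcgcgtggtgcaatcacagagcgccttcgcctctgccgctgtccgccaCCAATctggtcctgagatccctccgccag
Msmo1: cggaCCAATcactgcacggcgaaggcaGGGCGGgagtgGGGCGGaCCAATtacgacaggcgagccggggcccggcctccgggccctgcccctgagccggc
Nsdhl: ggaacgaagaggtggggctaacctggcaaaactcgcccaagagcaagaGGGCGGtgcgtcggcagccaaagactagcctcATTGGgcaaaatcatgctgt
Acly: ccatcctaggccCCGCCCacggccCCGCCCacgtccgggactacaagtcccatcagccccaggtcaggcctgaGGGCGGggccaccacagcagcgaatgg
Of these promoters, those of Idi1, Msmo1 and Nsdhl carry both kinds of box within 100 bases, and that of Cyp51 only the CCAAT box. All 14 sterol enzyme promoters searched held a CCAAT box. Among them were those of Ebp, Tm7sf2, Mvk and Dhcr7, which varied less closely with the other sterol enzymes, as described further on. With no sterol enzyme promoter lacking the box, its presence could not be compared with how closely the genes varied.

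The comparison of host ages asks whether these transcripts stood at another level in whole tumours, injected and host cells together, grown in an aged prostate. No member passed it. At an adjusted p of 0.05 (edgeR quasi-likelihood, Benjamini-Hochberg), 0 of the 29 genes were called, where 0.0% of the 14575 genes tested were called, and DESeq2 and limma voom called 0 of the 29 as well (0.295% and 0.0617% of all genes). At an unadjusted p of 0.05 edgeR gave 0 of the 29, against 4.99% of all genes (2.66% lower and 2.34% higher in aged tumours). For 0 of the 29 were the 4 aged tumours separated from the 4 young ones, against 3.4% of all genes. Point estimates were lower in aged tumours for 25 of 29 members, against 44.7% of all genes tested, with a median log2 fold change (aged minus young) of -0.13 against 0.03. That count rested on single tumours: it was 16 of 29 without aged 51 (median -0.01) and also 16 of 29 without young 43 (median -0.01). The 95% intervals had a median half-width of 0.56 on the log2 scale and differed in width: that of Fdps reached from -1.12 to 0.45 and that of Scap from -0.36 to 0.15.

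**Figure D2:**
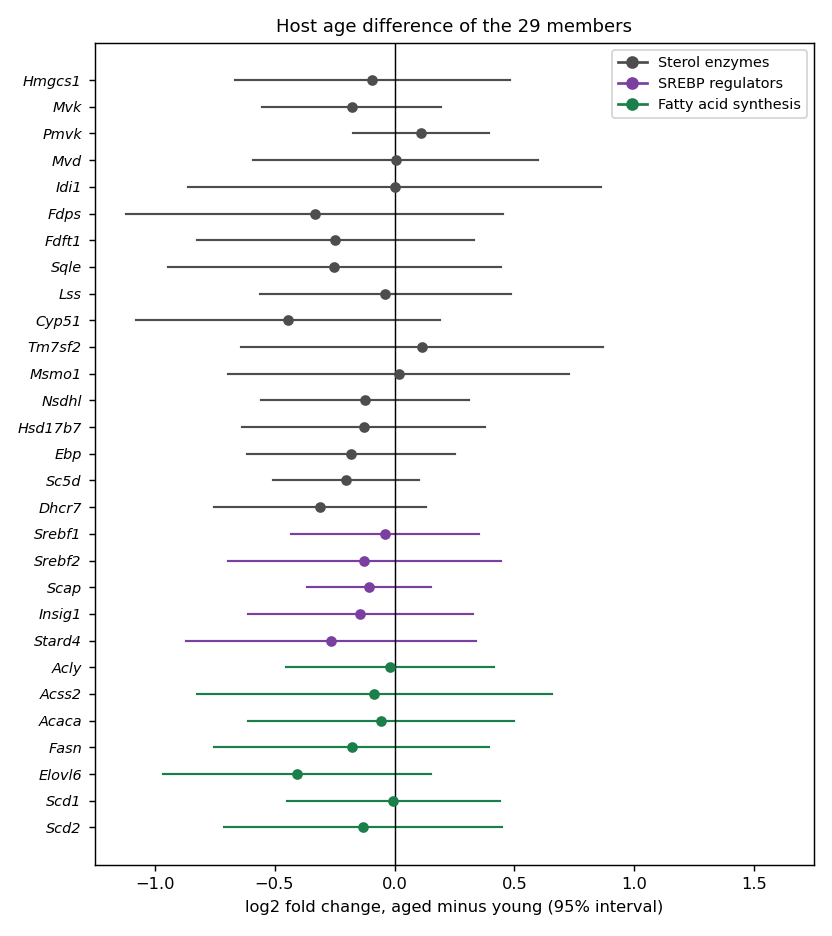
Log2 fold change (aged minus young, edgeR) of each member with its 95% interval, coloured by list. Every interval crosses 0, and the points lie between -0.44 (Cyp51) and 0.11 (Tm7sf2 and Pmvk).

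Among the enzymes up to squalene, Hmgcs1 averaged 87.6 ± 28.1 CPM in the aged group and 94.6 ± 23.5 CPM in the young group (SD, n = 4 tumours per group). Mvk, Pmvk and Mvd, which phosphorylate and decarboxylate mevalonate, had log2 fold changes of -0.18, 0.11 and 0.01. Idi1, the isomerase of the isoprenoid unit, showed the widest spread within a group. It stood at 164 CPM in aged 46, 75.1 in aged 47, 93.8 in aged 50 and 40.6 in aged 51, and at 76.6, 72.6, 108 and 123 CPM in young 36, 37, 40 and 43. The aged tumours thus held both the highest and the lowest level, and the log2 fold change was 0.00 ± 0.38 (SE). Idi1 was named for this range after its values were seen. Fdps (-0.33 ± 0.35, SE) and Fdft1, the squalene synthase (-0.25 ± 0.26), had larger estimates whose standard errors were as large, and which were -0.08 and -0.04 without aged 51 and -0.66 and -0.43 without aged 46.

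Sqle, the squalene epoxidase and a known control step, had a log2 fold change of -0.25 ± 0.31 (SE), or -0.04 without aged 51 and -0.56 without aged 46. Lss, which closes the ring to lanosterol, had -0.04 ± 0.23. Cyp51, the lanosterol demethylase (Entrez 13121, GRCm38 chromosome 5, 4080674 to 4104697), had the largest estimate on the list. It stood at 86.7 CPM in aged 46, 78.9 in aged 47, 89.4 in aged 50 and 33.4 in aged 51, and at 79.1, 83.1, 115 and 118 CPM in young 36, 37, 40 and 43. Only aged 51 lay well below the young range. The others fell among the values of young 36 and young 37 or slightly past them, and the log2 fold change of -0.44 ± 0.28 did not pass (adjusted p = 0.923 by edgeR's quasi-likelihood test). Without aged 51 it was -0.22. Of the later enzymes, Tm7sf2 (0.11 ± 0.33), Msmo1 (0.02 ± 0.31), Nsdhl (-0.12 ± 0.19) and Hsd17b7 (-0.13 ± 0.23) take off or reduce groups on the sterol ring, and Ebp (-0.18 ± 0.19) and Sc5d (-0.20 ± 0.14) move and add its double bonds.

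Dhcr7, the reductase of the last step (Entrez 13360, chromosome 7, 143823167 to 143848410), stood at 18.6, 20.7, 25.3 and 13.8 CPM in aged 46, 47, 50 and 51. In young 36, 37, 40 and 43 it stood at 19.1, 20.9, 27.4 and 30.1 CPM. Young 40 and young 43 were above every aged tumour, but young 36 and young 37 were below aged 50, so the groups overlapped (log2 fold change -0.31 ± 0.20, adjusted p = 0.923 by edgeR). Over the 17 sterol enzymes, 13 had lower and 4 higher estimates in aged tumours, with a median of -0.13 and a range from -0.44 to 0.11.

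Of the regulators, Srebf2 (Entrez 20788, chromosome 15, 82147269 to 82205379) stood at 292 CPM in aged 46, 175 in aged 47, 204 in aged 50 and 138 in aged 51, and at 185, 177, 242 and 292 CPM in young 36, 37, 40 and 43. The highest aged and the highest young tumour had the same level. Srebf1 (Entrez 20787, chromosome 11, 60199084 to 60224186) stood at 88.9, 89.7, 113 and 58.2 CPM in aged 46, 47, 50 and 51, and at 85.2, 79.8, 98.8 and 97.4 CPM in young 36, 37, 40 and 43. Here aged 50 was highest and aged 46 was near the middle, unlike for Srebf2. The log2 fold changes were -0.13 ± 0.25 for Srebf2 and -0.04 ± 0.17 for Srebf1. Per length Srebf2 exceeded Srebf1 in every tumour, by 1.39 times in aged 50 to 2.53 times in aged 46. Gene counts do not part the Srebf1a and Srebf1c forms, and cut, active SREBP protein was not measured.

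Scap, the escort of SREBP, varied least of the regulators, from 68.8 to 94.6 CPM over the 8 tumours (log2 fold change -0.11 ± 0.11). Insig1, which retains the Scap and SREBP complex and is itself an SREBP target, had -0.14 ± 0.21. Stard4, a carrier that moves sterols between membranes, had -0.26 ± 0.27. All 5 regulators had lower estimates in aged tumours, and without aged 51 only 2 of 5 did.

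In fatty acid synthesis, Elovl6 had the smallest p of the whole list. It encodes the elongase that lengthens palmitate (Entrez 170439, chromosome 3, 129532386 to 129638495). It stood at 58.1 CPM in aged 46, 43.2 in aged 47, 51.5 in aged 50 and 30.2 in aged 51, and at 48.5, 44.4, 69.3 and 83.0 CPM in young 36, 37, 40 and 43. Young 40 and young 43 lay above all aged tumours and young 36 and young 37 among them, and the log2 fold change of -0.41 ± 0.25 did not pass (unadjusted p = 0.135 and adjusted p = 0.923 by edgeR).

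Fasn, the multi-enzyme that assembles palmitate, stood at 424, 241, 258 and 305 CPM in aged 46, 47, 50 and 51 and at 271, 313, 326 and 507 CPM in young 36, 37, 40 and 43. Each age group thus had 1 tumour far above its others. Acaca, the carboxylase that supplies malonyl-CoA, was likewise highest in young 43 (177 CPM) and next in aged 46 (134 CPM), but aged 51 came after these for Acaca (129 CPM) and behind young 40 and young 37 as well for Fasn. Fasn and Acaca were chosen for full values after these were seen. Their log2 fold changes were -0.18 ± 0.25 and -0.06 ± 0.24, and that of Acly was -0.02 ± 0.19. Acss2 (Entrez 60525, chromosome 2, 155518043 to 155562743), the member with the lowest level per length, stood at 5.51, 8.92, 13.5 and 5.76 CPM in aged and at 8.29, 5.25, 11.1 and 11.0 CPM in young tumours, in the order used above. Its highest and lowest values did not follow those of Fasn.

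The desaturases Scd1 and Scd2 are neighbours on chromosome 19 (Entrez 20249, 44394450 to 44407709, and Entrez 20250, 44293676 to 44306864). Scd1 stood at 192, 121, 172 and 135 CPM in aged 46, 47, 50 and 51 and at 131, 145, 150 and 205 CPM in young 36, 37, 40 and 43. Scd2 stood at 592, 404, 553 and 271 CPM in the aged and at 514, 351, 596 and 550 CPM in the young tumours. Aged 51 was the lowest of all for Scd2, while for Scd1 aged 47 and young 36 were lower. The ratio of Scd2 to Scd1 per length was 1.78 in aged 51 and 2.15 to 3.53 in the others. The log2 fold changes were -0.01 ± 0.20 and -0.13 ± 0.26. Of the 50-base windows of Scd1 transcripts 3.0% also occur letter for letter in Scd2 and 3.45% in Scd3, so a small part of the reads could have been assigned to either copy.

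Across single tumours, aged 51 had the lowest level of most members. This tumour was picked out after its values were seen, so what follows is a description. It was the lowest of the 8 for 16 of 17 sterol enzymes and all 5 regulators, whereas it was lowest for 24.4% of all genes tested. Lss was the exception (31.4 CPM in aged 51 and 25.6 CPM in young 37). With TMM scaling these counts were 15 of 17 and 5 of 5, against 3061 of the 14575 genes tested, and 1 sterol enzyme each was lowest in young 36 and young 37. Against the median of the other 7 tumours the sterol enzymes of aged 51 were lower by a median of 0.72 on the log2 scale (17 of 17 below), where the median over all genes tested was 0.00. Scaling holds that median over all genes near 0 in every tumour (-0.015 to 0.008), so it does not measure how far other lists strayed. Fdps stood at 39.3 CPM in aged 51 and 92.7 to 161 CPM in the others, and Sqle at 35.5 against 66.3 to 108 CPM. Fdft1 stood at 24.8 against 49.6 to 69.0 CPM and Msmo1 at 35.2 against 64.3 to 118 CPM. The isomerase Ebp, at 18.0 against 24.3 to 35.8 CPM, and the kinase Mvk, at 17.4 against 25.3 to 32.1 CPM, were also clear of the other 7, while Pmvk (19.9 against 20.2 to 26.4 CPM) and Hsd17b7 (12.9 against 13.0 to 23.6 CPM) were only just below them.

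The fatty acid genes of aged 51 divided. Scd2, Elovl6 and Acss2 lay below the median of the other 7 tumours by 0.91, 0.67 and 0.51 on the log2 scale. Fasn (0.02), Acly (0.08) and Scd1 (-0.04) lay close to it, and Acaca lay above it (0.41). The mean log2 CPM of the fatty acid genes exceeded that of the sterol enzymes by 2.19 in aged 51 and by 1.57 to 1.93 in the other 7 tumours. At the upper end, young 43 was the highest of the 8 for 9 of 17 sterol enzymes and 5 of 7 fatty acid genes, against 20.3% of all genes, and aged 46 for 5 of 17 sterol enzymes, against 11.8% of all genes. The high level of aged 46 was most marked for Idi1 (1.12 above the median of the other 7 on the log2 scale) and Msmo1 (0.89), and did not extend to Mvk (-0.08), Dhcr7 (-0.09), Ebp (-0.23) or Acss2 (-0.56). In aged 51 the summed skeletal muscle and adipocyte markers were the highest of the 8, as given above, and the 7 epithelial markers summed to 141 CPM, against 192 to 670 CPM in 6 others and 63.7 CPM in young 43. Fabp4 alone gave 398 CPM of the adipocyte sum of aged 51. Adipoq, Cidec, Fabp4, Pnpla2 and Lipe were highest in aged 51, but Plin1, Retn and Cfd in young 43 and Lep and Pparg in aged 50. Young 43 and aged 46 also had the highest sums of the 8 proliferation markers (1471 and 1187 CPM, against 820 to 1039 CPM in the others). Aged 51, the lowest in most sterol enzymes, stood near the top of that range of the others, at 1034 CPM. Aged 46 also had the lowest sums of the 7 fibroblast markers (5813 CPM, against 10086 to 18617 CPM), the 7 macrophage markers (1284, against 1938 to 2758 CPM) and the 7 endothelial markers (213, against 261 to 389 CPM). No marker of the epithelial, proliferation, fibroblast or macrophage lists was at 0 in any tumour. The part of cell makeup or proliferation in these tumour differences was not tested.

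**Figure D3:**
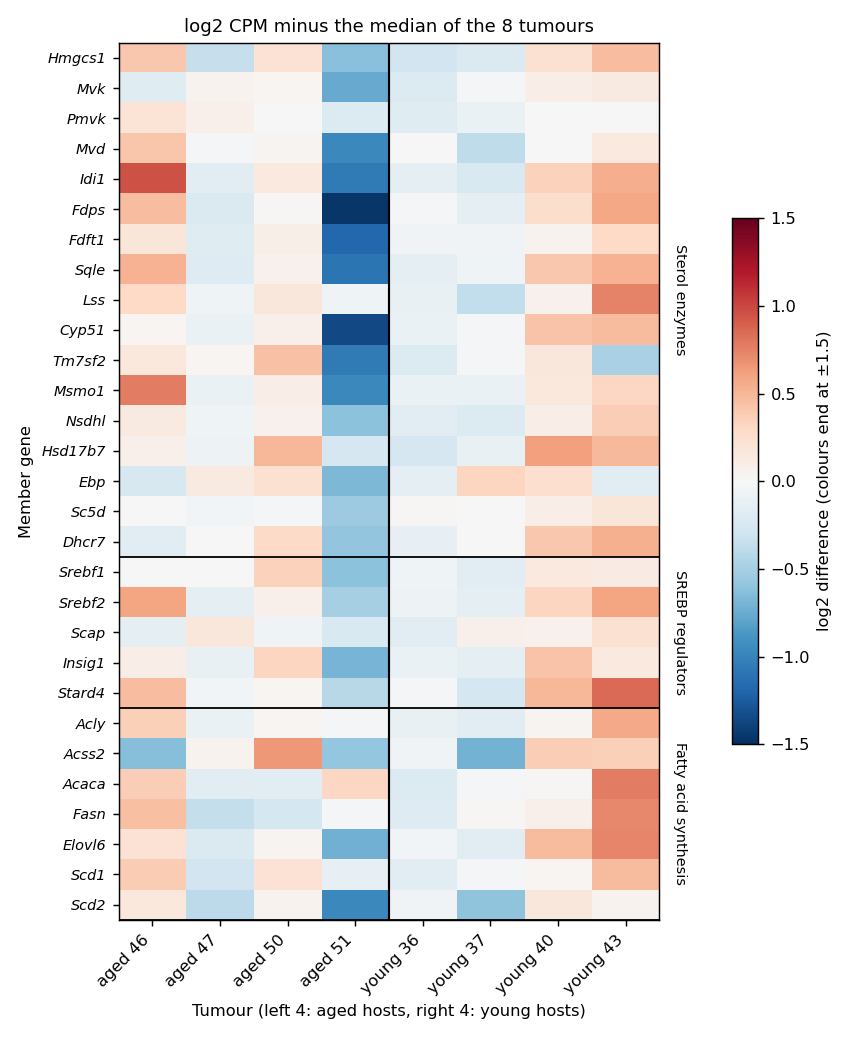
Log2 CPM of each member (rows) in each tumour (columns) minus the median of that gene over the 8 tumours; blue is below and red above. Aged 51 is blue for the sterol enzymes and regulators (Lss only faintly), near white for Acly, Fasn and Scd1 and red for Acaca, and young 43 and aged 46 are red for most members.

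The members' order over the tumours was largely shared. Spearman's rho between 2 sterol enzymes over the 8 tumours had a median of 0.62 over 136 pairs, of which 127 were positive. Between sterol enzymes and regulators it was 0.69 (85 pairs), among fatty acid genes 0.50 (21 pairs) and between sterol enzymes and fatty acid genes 0.52 (119 pairs). The median over all pairs of the 11395 tested genes in the same range of level was 0.00. Without aged 51 the median was 0.50 among sterol enzymes, 0.71 among fatty acid genes and 0.64 between both lists. These are descriptions over few tumours whose members share libraries and scaling. Fdps had the highest median rho with the other 16 sterol enzymes (0.89), followed by Idi1 and Msmo1 (0.87 each), and Srebf2 had 0.88 and Stard4 0.86 with the 17. Ebp stood apart with a median of -0.01 (-0.52 without aged 51), and Tm7sf2 (0.35), Mvk (0.42) and Dhcr7 (0.44) were lower than most. Among the fatty acid genes, Elovl6 (0.83), Scd2 (0.79) and Scd1 (0.69) had higher medians than Acly (0.57), Fasn (0.48), Acaca (0.41) and Acss2 (0.33). That order rested on aged 51: without it Acly had 0.89, Elovl6 0.79, Scd1 and Scd2 0.71 each, Fasn 0.68, Acaca 0.61 and Acss2 0.29.

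**Figure D4:**
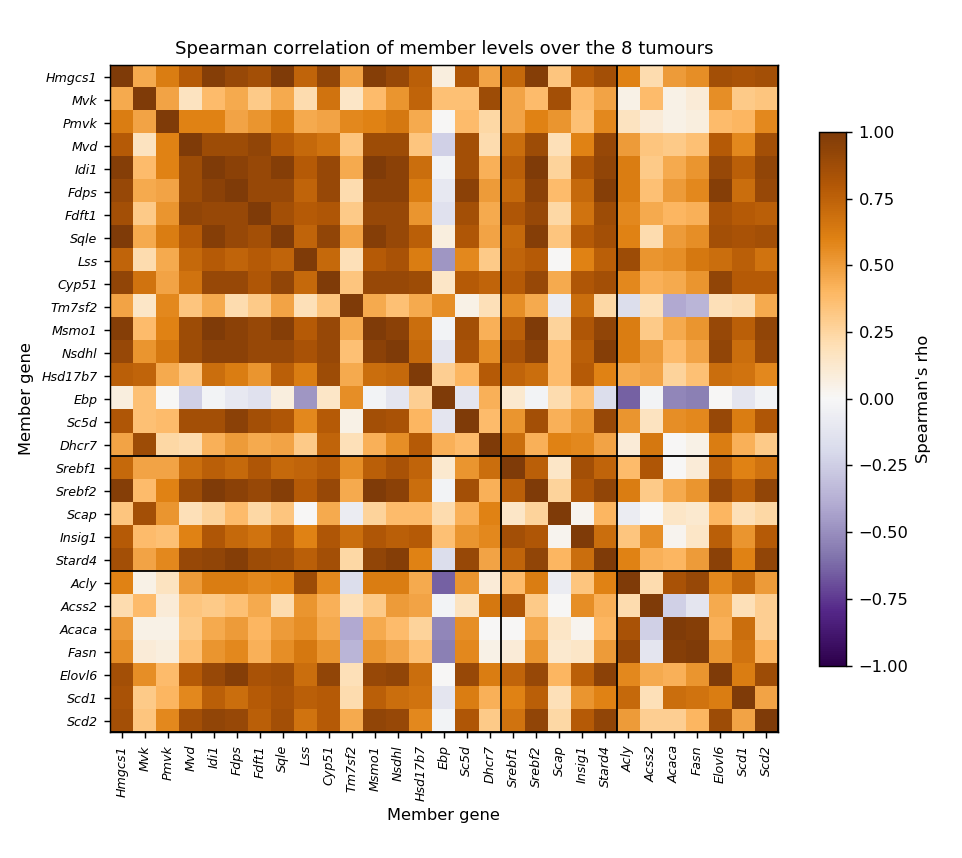
Spearman's rho between each pair of members over the 8 tumours, with lines parting sterol enzymes, regulators and fatty acid genes. Most pairs of sterol enzymes are positive, Ebp is near or below 0 with most, and Fasn and Acaca are dark with each other and paler with the sterol enzymes, over tumours that include aged 51.

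Other lipid genes were counted from lists drawn up beside the members, and 0 of them passed edgeR's adjusted threshold. Of 12 other genes of sterol synthesis and SREBP processing 5 were lower and 7 higher in aged tumours. Of 12 genes of cholesterol uptake, storage and transport 6 were lower and 6 higher. Soat1, which esterifies cholesterol for storage, stood at 94.5, 105, 88.1 and 97.5 CPM in aged 46, 47, 50 and 51 and at 106, 116, 131 and 131 CPM in young tumours. Its groups did not overlap (3.4% of all genes), aged 47 and young 36 being nearly equal, and its log2 fold change of -0.31 ± 0.11 did not pass (unadjusted p = 0.0176, adjusted p = 0.923 by edgeR). Of the LXR targets and efflux genes 9 of 10 were tested, 5 lower and 4 higher, with Nr1h3, which encodes LXR alpha, at -0.62 ± 0.37 (-0.40 ± 0.32 without aged 51). Of the 17 tested genes of elongation, desaturation and precursor supply 10 were lower and 7 higher. The lipogenic factor Thrsp had 1.62 ± 0.75, with 4.14 CPM in aged 51 and 0.104 to 2.03 CPM in the others. Without aged 51 it had 0.93 ± 0.71, and the part of adipocytes, whose summed markers were highest in aged 51, was not tested.

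Fatty acid oxidation, the opposite route, had 15 of 18 estimates higher in aged tumours, with a median of 0.17, against 8060 of 14575 and 0.03 over all genes tested. Without aged 51 the count was 16 of 18 and the median 0.15. Estimates were also higher in aged tumours for 10 of 10 adipocyte markers (median 0.55) and for 5 of 5 tested skeletal muscle markers (median 1.89). Adipocyte sums were 86.1, 237, 239 and 653 CPM in aged 46, 47, 50 and 51 and 73.7 to 268 CPM in young tumours. Muscle sums were 9.35, 15.9, 20.7 and 116 CPM in the same aged tumours and 10.8 to 38.1 CPM in young ones. Only aged 51 lay above the young range in either sum. The part of these markers in the oxidation list was not tested. Cpt1a, which admits fatty acids to mitochondria, stood at 197 CPM in aged 51 and 77.2 to 121 CPM in the others, and its muscle form Cpt1b at 6.55 CPM against 0.971 to 1.97 CPM. Without aged 51 the log2 fold change of Cpt1a went from 0.57 ± 0.27 to 0.21 ± 0.13 and that of Cpt1b from 1.29 ± 0.53 (unadjusted p = 0.0376 by edgeR) to 0.52 ± 0.32 (unadjusted p = 0.147). Aged 51, high in these 2 genes and low in sterol enzymes, was also the tumour with the highest sums of both kinds of marker. The list's mean log2 CPM was 5.32 to 5.59 in aged and 5.15 to 5.26 in young tumours. Of 12 genes of glycerolipid synthesis 9 were higher and 3 lower, with Gpat3, an acyltransferase of the first step, at 0.81 ± 0.34 (0.53 ± 0.32 without aged 51).

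**Figure D5:**
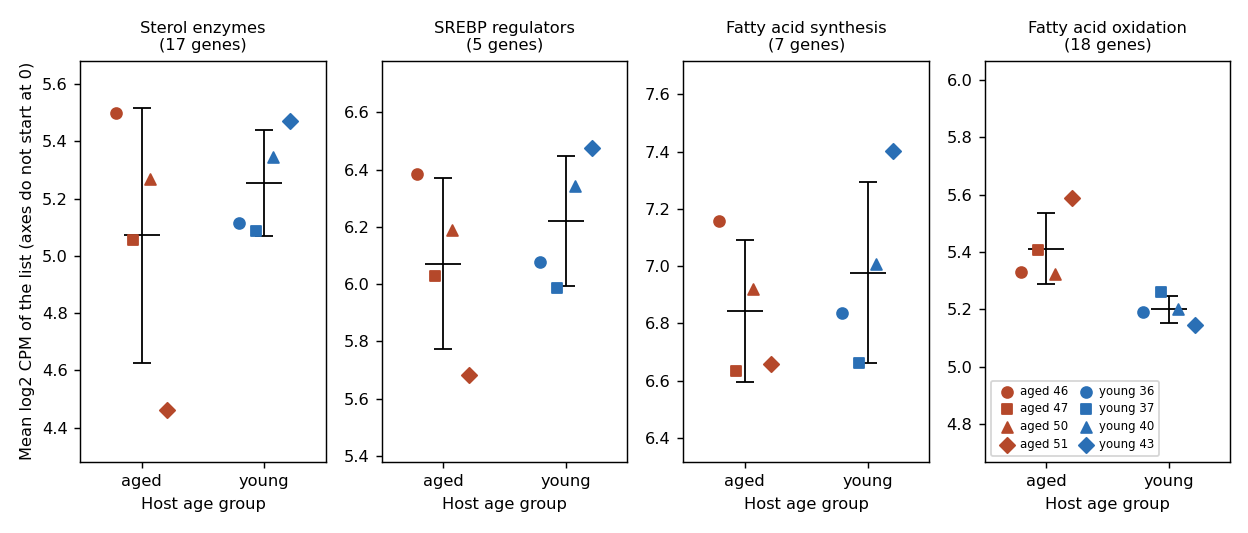
Mean log2 CPM of 4 gene lists in each tumour (points), with the mean and SD of each host age group (bars, n = 4); the axes have the same span and do not start at 0. Aged 51 lies at 4.46 for the sterol enzymes, below the other 7 tumours (5.06 to 5.50), and at the top for fatty acid oxidation (5.59).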

How the data were processed

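RNA of 8 tumours was measured. Per the file headers, the authors deposited for 24028 Entrez genes the count of fragments, with FPM and FPKM beside it. The deposited FPM values are CPM (checked against the counts), and the deposited FPKM values are that CPM over the transcript length in the same table. Tools named by the submitters' processing notes are TopHat2 2.0.12, Picard 2.7.1 and bcl2fastq, with build GRCm38. Not given in the sources used here are the counter, the gene models and whether strand was used. Exons of 12 of the 29 members overlap another gene in GENCODE vM21, most of them on the opposite strand. The largest overlaps are Fdps with Gm43738 (26.7% of exon bases, same strand), Fdft1 with Ctsb (18.3%, opposite strand), Scap (13.2%, opposite), Hmgcs1 (12.1%, opposite) and Tm7sf2 with Vps51 (12.1%, same strand), and these values are uncertain to that extent.

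The test of host age was that of edgeR 4.0.16, run in R 4.3.3 (filterByExpr with a minimum count of 10 and minimum total of 15, TMM factors, robust quasi-likelihood fit, host age as the only term), and p-values were adjusted by Benjamini-Hochberg over all 14575 genes tested. The standard error is the fold change over the square root of its F statistic. Alternatives were DESeq2 1.42.0, limma 3.58.1 (voom with sample weights), other scalings and filters, and each tumour left out. The member rule uses symbols alone, but the members, gene lists and alternatives were chosen with earlier results of these data known. Full values are given for members whose groups do not overlap, the 3 with the smallest p, the highest and lowest level per length, Scd1, Scd2, Srebf1 and Srebf2, and the other genes given in full (Idi1, Fasn, Acaca and the enzymes listed for aged 51) were picked once their values were known. Of each other lipid list at most 3 genes of smallest p are given, and some of these are not reported here. Lists are described by counts and medians, with no test. List means and correlations used log2 CPM with TMM factors and a prior count of 2, and single values are CPM as deposited. The procedure was tested on simulated data whose changes were larger than any member's estimate, so changes of that smaller size were not tested. No pair of libraries agreed within sampling noise (lowest chi-square per degree of freedom 45.6). Depth of 27.1 to 35.7 M fragments makes 3 fragments 0.084 to 0.111 CPM, counting error only.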

Additional observations from a re-analysis of the deposited data

Results flagged for a closer look

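Of 58 sets of 4 tumours checked (29 members in 2 host groups), 1 had a tumour far from the other 3, where chance gives about 1 in 20. Sc5d, the desaturase that adds a double bond to the sterol ring, had 24.6 CPM in aged 51 and between 35.0 and 36.2 CPM in aged 46, 47 and 50, a gap of 0.892 of the range of that group.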

How the results depend on the processing

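The number of members called was 0 under every alternative run. Over all genes edgeR called 0 under each alternative in its settings, while DESeq2 called 43 and voom 9, and the cause was not tested. Median log2 fold changes, reported as -0.128, -0.126 and -0.085, ran from -0.29 to -0.04 for sterol enzymes, -0.23 to 0.01 for regulators and -0.23 to 0.04 for fatty acid genes. The sign changed for regulators without aged 51 (0.007) and for fatty acid genes without young 43 (0.041). All shifts were below the SD between tumours (0.201, 0.176 and 0.303). Leaving out 1 tumour can hardly shift a group by more than that, so this does not show that the medians were stable. Pmvk, Fdps, Fdft1, Sqle, Cyp51, Ebp, Sc5d, Dhcr7, Stard4 and Elovl6 kept their direction under every alternative run, without passing the test, but not their size: with 1 tumour left out Fdps ran from -0.66 to -0.079, Sqle from -0.56 to -0.035, Fdft1 from -0.432 to -0.038, Stard4 from -0.474 to -0.041, Ebp from -0.283 to -0.049, Cyp51 from -0.584 to -0.217, Elovl6 from -0.58 to -0.228, Dhcr7 from -0.431 to -0.191, Sc5d from -0.285 to -0.104 and Pmvk from 0.017 to 0.163. Estimates changed sign for Idi1 with the 1 CPM filter (0.001), no filter (0.003), DESeq2 (0.008) and RLE factors (0.008), and for Scd1 with DESeq2 (0.002) and RLE factors (0.002). With voom they did for Mvk (0.011), Lss (0.002), Msmo1 (-0.109), Scap (0.073) and Acss2 (0.092), with total counts alone for Mvd (-0.008) and Msmo1 (-0.004), and without aged 50 and young 36 for Tm7sf2 (-0.056) and Msmo1 (-0.003). With 1 tumour left out in turn, which leaves fewer samples, signs changed for 17 members, with ranges of -0.234 to 0.204 (Mvd), -0.363 to 0.238 (Msmo1), -0.378 to 0.05 (Acss2), -0.309 to 0.057 (Hmgcs1), -0.472 to 0.241 (Idi1), -0.174 to 0.229 (Lss), -0.16 to 0.163 (Acly), -0.182 to 0.197 (Acaca), -0.159 to 0.143 (Scd1), -0.046 to 0.331 (Tm7sf2), -0.244 to 0.0 (Nsdhl), -0.162 to 0.097 (Srebf1), -0.397 to 0.026 (Srebf2), -0.265 to 0.007 (Insig1), -0.324 to 0.038 (Scd2), -0.268 to 0.005 (Hsd17b7) and -0.408 to 0.041 (Fasn). No paired analysis was possible because the mouse numbers of the 2 groups share no value. Harvest day and library batch of each tumour are not in the labels used here.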
